A study of Danio rerio with 13 samples.

Results

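RNA of skeletal muscle contractile and calcium genes was followed in heart preparations of 3-day-old zebrafish embryos in which an autophagy gene had been targeted. The genes were chosen by symbol: myosin heavy and light chains, troponins, tropomyosins, muscle actins and actinins, myosin-binding and Z-disc proteins, titin, nebulin, desmins, tropomodulins, parvalbumins, the SERCA1 pumps, sarcalumenin, calsequestrin, voltage-gated calcium channel subunits and creatine kinases. The heart genes myl7, tnnt2a, tnnc1a, myh7, mybpc3 and tpm1 were left out. The pattern found 66 genes of the 8793 with a probe set of their own symbol, on 79 probe sets, and for each gene the set with the highest mean signal was used. Of the 66 genes, 53 were assigned to the sarcomere, calcium handling or energy supply, and 13 to smooth muscle, non-muscle or unrelated genes that share the symbol pattern. The 4 further probe sets that matched the pattern but carried several symbols were not members.

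The hearts came from embryos injected at the 1-cell stage with a morpholino against atg5 (3 arrays), becn1 (3 arrays) or atg7 (2 arrays), with a control morpholino (2 arrays, numbered 2 and 3), or from embryos that were not injected (3 arrays), each hybridized to 1 one-colour Affymetrix array. Morpholinos are synthetic antisense oligomers that stop a target RNA from being translated or spliced, and the labels give neither the step that was blocked, nor the strain, nor the number of embryos per sample. The title of the third becn1 array reads becn and was taken as becn1. The labels call the samples biological replicates, so the tests weigh differences against the spread between preparations, which may be technical.

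Skeletal muscle shortens when myosin heads pull on actin filaments inside the sarcomere. Calcium released from the sarcoplasmic reticulum binds troponin, which moves tropomyosin off the myosin-binding sites, and the SERCA1 pump and the soluble parvalbumins then take the calcium away. Fast fibres, slow fibres and heart muscle use different paralogues of many of these proteins, and creatine kinases return phosphate to ADP beside the contracting filaments. In a purified embryonic heart these transcripts are taken as a measure of skeletal muscle in the preparation, although several of the genes, such as actc1a, ttn.2, desma and casq2, are also used by heart muscle. In bulk RNA, fewer cells of a type and less RNA per cell cannot be told apart.

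Levels below are log2 intensities after quantile normalization, and differences are given on that scale with their standard error (SE). A probe set was tested if it exceeded the 40th percentile of its array on at least 2 arrays, which kept 10307 probe sets and 55 of the 66 members, and it was called at an adjusted p under 0.05 (limma, Benjamini-Hochberg over the 10307). The 11 members below the filter were cacna1ha, cacna1c, cacng1a, mylka, desi1a, tnni2a.2, tnni2a.3, ldb3b, actn2b, tnnt2c and tmod2. An intensity under 16, log2 4, has no exact size. It occurred on some array for 22 members, 11 of them kept, and on every array for cacna1c, tnni2a.3, tnnt2c and tmod2.

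The arrays differed in ways that touch these genes. Of the 3 targeted genes only atg5 had a named probe set here. Its brighter set read 8.24, 8.26 and 8.14 on the atg5 arrays against 8.22 and 7.87 on the control morpholino arrays. This checks little, since a block of translation can leave the RNA in place and the labels do not give the step blocked. The 7 heart sarcomere genes on the array, the genes left out and cmlc1, stood 1.15 to 1.99 above their own means in the median on the knockdown arrays numbered 1 (atg5 1, becn1 1 and atg7 1) and between -1.07 and 0.55 on the other 10 arrays. Above their own means were 7 of the 7 on atg5 1 and on atg7 1 and 6 on becn1 1, where tpm1 had its lowest value, 4.15. The actc1b control probe sets gave a 3' to 5' signal ratio, a sign of RNA degradation when high, of 86.2 on atg7 2 and of 8.03 to 29.9 elsewhere. The gene actc1b is itself a member. For gapdh the ratio was 5.98 on atg7 2 and 2.30 to 3.28 elsewhere.

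Muscle genes were high on a few preparations, which belonged to more than 1 group. By group mean the uninjected hearts stood highest for 40 of the 55 kept members and lowest for 0. That count was not made over all probe sets. Members of the fast sarcomere and energy roles were high on uninjected 1, uninjected 3, control morpholino 2 and becn1 3. Calcium genes had median deviations of 0.98 on uninjected 1, 0.59 on control morpholino 2 and 0.43 on atg5 1. Those were above their 0.21 on uninjected 3 and 0.13 on becn1 3. In these roles uninjected 2 and control morpholino 3 read about like the remaining knockdown arrays. The median deviation of the 66 members from their own 13-array means was 0.22, -0.20 and -0.30 on atg5 1, 2 and 3, and -0.31, -0.21 and 0.16 on becn1 1, 2 and 3. It was 0.05 and -0.48 on atg7 1 and 2, 0.46 and -0.31 on control morpholino 2 and 3, and 0.89, -0.08 and 0.27 on uninjected 1, 2 and 3. Every group with the exception of atg7 held both an array above 0.1 and an array below 0, and the groups overlapped. Uninjected 1 was the highest array for 28 of the 66 members, and for 887 of the 10307 probe sets kept. The lowest array was becn1 1 for 17 members and atg7 2 for 15, and for 1137 and 1041 of the probe sets kept. Among the 12 fast sarcomere members kept, uninjected 1 was among the 4 highest arrays for 12, uninjected 3 for 11, becn1 3 and control morpholino 2 for 9 each, and uninjected 2 for 0. In the same order, these arrays were among the 4 highest for 28.7%, 33.8%, 32%, 25.3% and 29.5% of all probe sets kept.

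**Figure D1:**
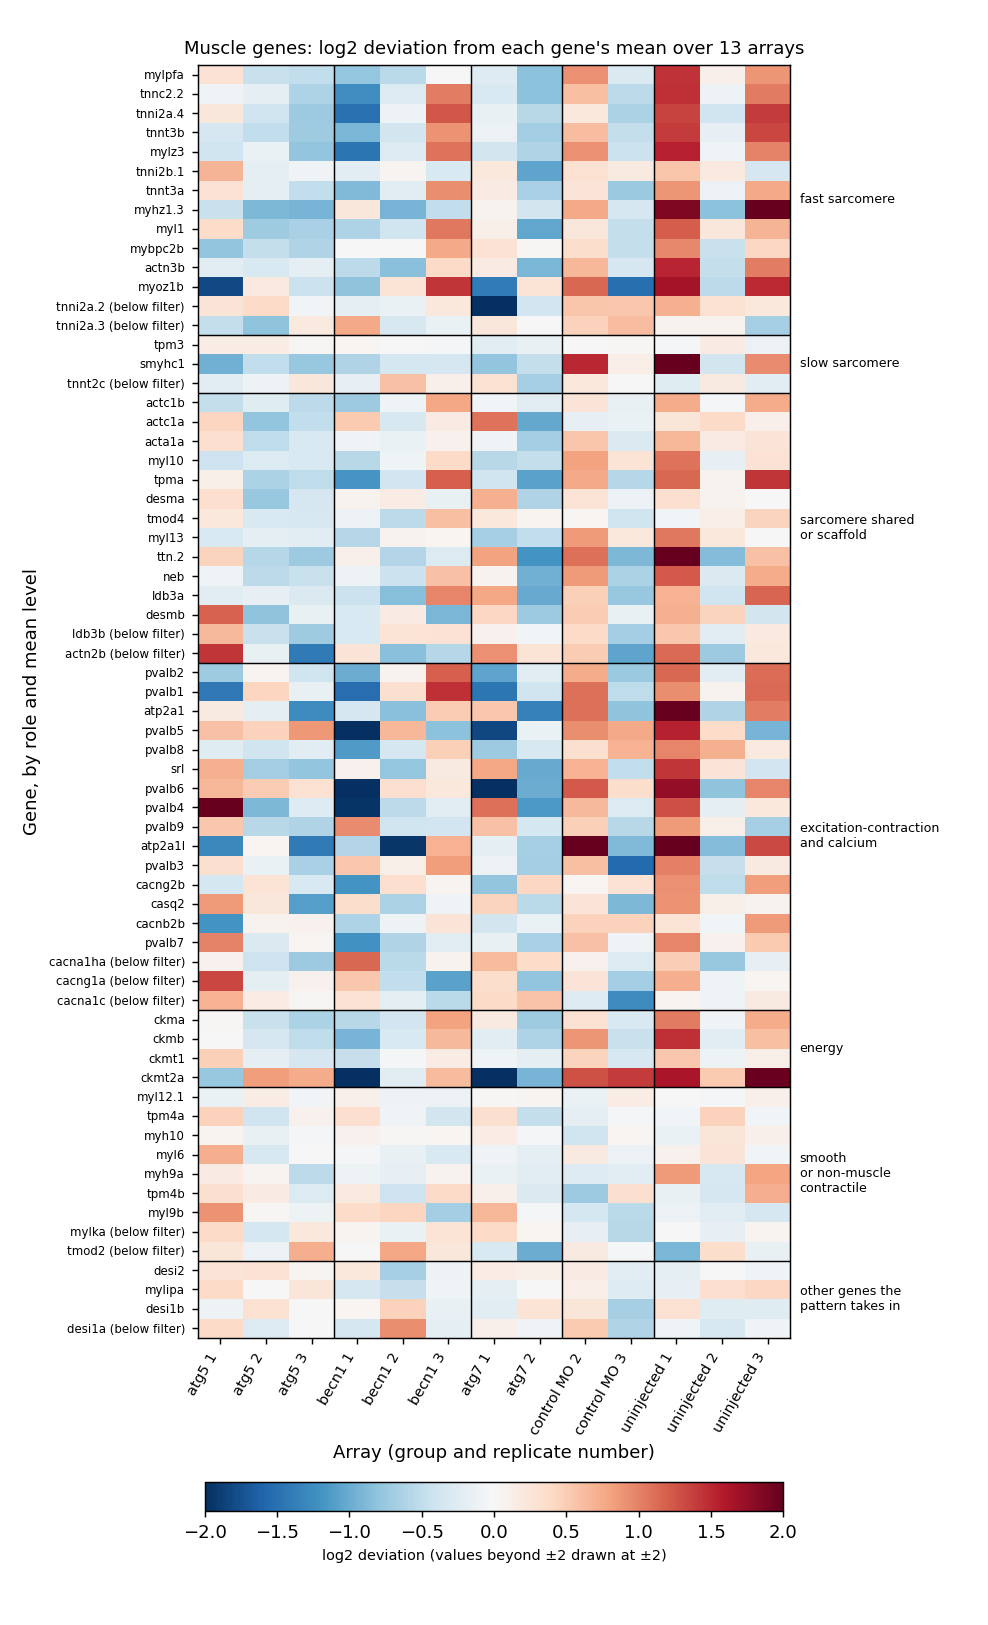
Heat map of the 66 muscle genes (rows, by role and mean level) on the 13 arrays (columns, knockdowns left of control morpholino and uninjected), coloured by the log2 deviation from each gene's own mean. Red columns at uninjected 1, uninjected 3, control morpholino 2 and becn1 3 run through most fast sarcomere and energy rows and many calcium rows, and fade in the smooth or non-muscle rows.

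Fast sarcomere genes showed this most evenly. The fast regulatory light chain mylpfa read 10.13, 9.39 and 9.34 on the atg5 arrays, 9.06, 9.30 and 9.85 on becn1, 9.58 and 9.02 on atg7, 10.75 and 9.55 on control morpholino and 11.29, 9.94 and 10.72 on uninjected. All uninjected arrays but uninjected 2 lay above every knockdown array, and atg5 1 lay above uninjected 2, so that the groups overlapped by 1 array on each side. The fast troponin C tnnc2.2 read 9.51, 9.41 and 8.97 on atg5, 8.34, 9.31 and 10.61 on becn1, 9.27 and 8.76 on atg7, 10.18 and 9.06 on control morpholino and 11.05, 9.48 and 10.62 on uninjected. Here becn1 3 stood beside uninjected 3, above 7 other knockdown arrays. The fast troponin I tnni2a.4 read 9.56, 8.93 and 8.60 on atg5, 7.84, 9.22 and 10.57 on becn1, 9.17 and 8.77 on atg7, 9.54 and 8.70 on control morpholino and 10.68, 8.93 and 10.73 on uninjected.

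The fast troponin T tnnt3b and the light chain mylz3 gave a like order, with becn1 3 at 10.02 and 9.71 and every other knockdown array at or below 9.0 and 8.49. Uninjected 1, 2 and 3 read 10.51, 8.95 and 10.46 for tnnt3b and 10.17, 8.53 and 9.60 for mylz3. The fast myosin heavy chain myhz1.3, named after its values were seen, read 7.77, 7.32 and 7.29 on atg5, 8.45, 7.29 and 7.73 on becn1, 8.29 and 7.85 on atg7, 8.97 and 7.89 on control morpholino and 10.08, 7.40 and 10.54 on uninjected. For this gene becn1 3 was not high. A probe set shared by 6 fast heavy chain symbols, no member, had its 3 highest values on the same arrays, with 11.94 on uninjected 3, 11.99 on control morpholino 2 and 12.48 on uninjected 1 against at most 10.58 on a knockdown array. The troponin I tnni2b.1 stood apart, with its highest value of 9.0 on atg5 1 and 7.98 on uninjected 3.

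Slow muscle was represented by 2 kept genes, 1 with a wide and 1 with a narrow range. The slow myosin heavy chain smyhc1 read 5.00, 5.48 and 5.21 on atg5, 5.37, 5.61 and 5.63 on becn1, 5.18 and 5.49 on atg7, 7.48 and 6.11 on control morpholino and 8.53, 5.60 and 6.91 on uninjected. All 8 knockdown arrays lay within 5.00 to 5.63, below both control morpholino arrays and below 2 of 3 uninjected arrays. The tropomyosin tpm3, which slow fibres and non-muscle cells use, had the second smallest range of the kept members, 0.38, between 10.14 and 10.52. The slow troponin T tnnt2c was under 16 on every array.

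Genes shared by striated muscles, or of the scaffold of the sarcomere, comprised those that followed the fast genes and those that did not. The muscle actin actc1b read 11.50, 11.75 and 11.47 on atg5, 11.26, 11.90 and 12.75 on becn1, 11.93 and 11.76 on atg7, 12.25 and 11.84 on control morpholino and 12.73, 11.96 and 12.73 on uninjected. Again becn1 3 matched the high uninjected arrays, and the other 7 knockdown arrays lay below uninjected 2. The tropomyosin tpma followed the fast genes, with 8.92 on becn1 3, 9.15 on uninjected 3 and 6.53 to 7.83 on the other knockdown arrays. The cardiac actin actc1a did not: it read 10.33, 9.11 and 9.41 on atg5, 10.42, 9.59 and 10.06 on becn1, 10.98 and 8.88 on atg7, 9.74 and 9.77 on control morpholino and 10.14, 10.28 and 9.999 on uninjected, with its 3 highest values on the knockdown arrays numbered 1. The intermediate filament gene desma was highest on atg7 1, at 8.43, and the giant spring protein ttn.2 on uninjected 1, at 8.85.

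The myosin light chains myl10 and myl13 were lower on most knockdown arrays than on both control morpholino arrays. For myl13 the levels were 6.99, 7.11 and 7.06 on atg5, 6.71, 7.36 and 7.33 on becn1, 6.63 and 6.79 on atg7, 8.13 and 7.50 on control morpholino and 8.35, 7.49 and 7.28 on uninjected. Every knockdown array lay below both control morpholino arrays, and uninjected 3 lay among them. For myl10 the knockdown arrays ran from 7.47 to 8.41, against 8.84 and 8.30 on control morpholino and 9.12, 7.86 and 8.31 on uninjected. Here becn1 3, at 8.41, lay above control morpholino 3, uninjected 2 and uninjected 3, and becn1 2, at 7.94, lay above uninjected 2.

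Calcium genes had wide ranges and no single pattern. The parvalbumin pvalb1 read 9.05, 10.91 and 10.33 on atg5, 8.95, 10.79 and 11.94 on becn1, 9.02 and 10.08 on atg7, 11.58 and 9.97 on control morpholino and 11.41, 10.54 and 11.60 on uninjected. It was lowest on the 3 knockdown arrays numbered 1 and highest on becn1 3. The related pvalb2 kept much of that order, with 9.90, 9.62 and 9.56 on atg5 1, becn1 1 and atg7 1, 11.81 on becn1 3 and 11.76 on uninjected 1. For pvalb5 and pvalb6 the low arrays were becn1 1 and atg7 1 without atg5 1, at 5.94 and 6.60 for pvalb5 and 4.95 and 4.96 for pvalb6. By contrast pvalb4 was highest on atg5 1, at 9.20, and lowest on becn1 1, at 5.03, a range of 4.17. The parvalbumin pvalb8 had its 3 highest values on uninjected 1, uninjected 2 and control morpholino 3, at 9.02, 8.75 and 8.74. On uninjected 2 and control morpholino 3 fast sarcomere genes had median deviations of -0.11 and -0.46. Whether skeletal muscle was the source of pvalb8 and the other parvalbumin transcripts was not tested.

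SERCA1, the pump of fast fibres, followed the fast sarcomere genes. Its gene atp2a1 read 8.86, 8.48 and 7.42 on atg5, 8.34, 7.85 and 9.19 on becn1, 9.22 and 7.33 on atg7, 9.79 and 7.89 on control morpholino and 10.75, 8.08 and 9.71 on uninjected. Its relative atp2a1l was above 6 on control morpholino 2 (7.36), uninjected 1 (8.28) and uninjected 3 (6.26) alone and was under log2 4 on 3 knockdown arrays. Sarcalumenin, srl, a calcium-binding protein of the reticulum, had its 2 highest knockdown values on atg5 1 and atg7 1, at 8.13 and 8.19, against 8.86 on uninjected 1. Calsequestrin casq2 and the genes with channel subunit symbols, cacnb2b and cacng2b, were under 16 on some arrays, and cacna1c was under 16 on every array. Whether skeletal muscle was the source of these channel transcripts was not tested.

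The cytosolic creatine kinases ckma and ckmb followed the fast genes. For ckma the levels were 8.77, 8.29 and 8.11 on atg5, 8.18, 8.35 and 9.54 on becn1, 8.92 and 8.03 on atg7, 9.04 and 8.44 on control morpholino and 9.78, 8.66 and 9.48 on uninjected. The sarcomeric mitochondrial kinase ckmt2a had the widest range of any kept member, 6.33, or 80.3-fold: it read 6.47, 8.07 and 7.97 on atg5, 2.87, 7.01 and 7.85 on becn1, 4.43 and 6.29 on atg7, 8.50 and 8.62 on control morpholino and 8.85, 7.74 and 9.20 on uninjected. All 8 knockdown arrays lay below both control morpholino arrays, while atg5 2, atg5 3 and becn1 3 lay above uninjected 2. The lowest arrays for ckmt2a, becn1 1 and atg7 1, were also the lowest for pvalb5 and pvalb6. Retina and lens genes, listed below, were lowest there too, at mean levels of 4.22 and 4.56. On control morpholino 3 ckmt2a was high, where fast sarcomere genes had a median deviation of -0.46. Whether skeletal muscle was the source of ckmt2a was not tested. The ubiquitous mitochondrial kinase ckmt1 stayed within 7.95 and 8.94.

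**Figure D2:**
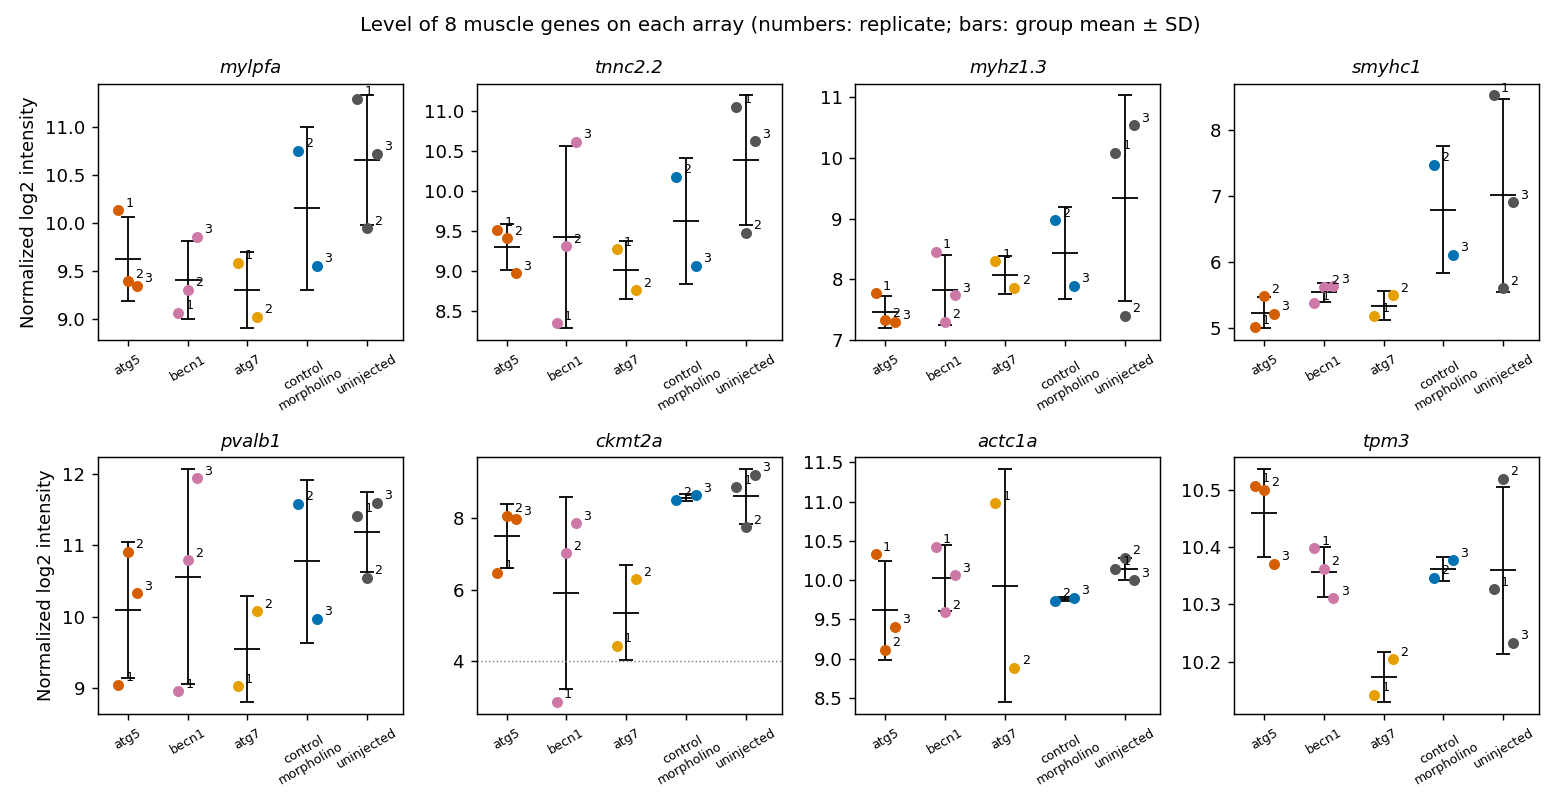
Normalized log2 intensity (vertical axes) of 8 muscle genes on each array by group, with replicate numbers beside the points, group means and SD as bars, and a dotted line at log2 4 where values come near it. For smyhc1 the 8 knockdown arrays lie within 5.00 to 5.63, while tpm3 spans 0.38 over all 13 arrays.

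Smooth muscle, non-muscle and unrelated genes taken in by the pattern varied less in the median than the other roles. Single genes among them did not, as myl9b, tpm4b and myh9a had ranges of 1.57, 1.46 and 1.38, against 1.49 for actc1b. The narrowest of the 55 kept members were the regulatory light chain myl12.1, with a range of 0.28, tpm3, the non-muscle heavy chain myh10, the ubiquitin ligase gene mylipa and the tropomyosin tpm4a. The pooled within-group SD had a median of 0.66 over the 55 kept members, against 0.30 over all 10307 probe sets, and it exceeded 0.5 for 60% of members against 14% of probe sets. By role the median SD was 0.82 for calcium genes, 0.72 for fast sarcomere genes, 0.63 for energy genes and 0.55 for shared sarcomere genes, against 0.37 for smooth or non-muscle genes and 0.26 for the 3 unrelated genes. Preparations of 1 group therefore differed from each other in these genes more than in a typical probe set.

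The first comparison asks how muscle genes stood in the 3 knockdowns together, each with equal weight, against hearts of uninjected embryos. Of the 66 members 56 were lower, 84.8%, and 10 higher, where 47.6% of all probe sets kept were lower. Counts over the 66 here and below include the 11 members below the filter. The median difference was -0.60 against 0.02 over all probe sets kept. The median was -1.02 for fast sarcomere genes (13 of 14 lower), -0.85 for energy genes (4 of 4), -0.63 for calcium genes (16 of 18) and -0.59 for shared sarcomere genes (14 of 14). It was -0.05 for smooth or non-muscle genes and 0.14 for the unrelated genes. For the 3 slow genes the median was -0.03, but they ranged from -1.64 for smyhc1 to 0.09. Of these 3, tnnt2c was under 16 on every array and tpm3 is also used by non-muscle cells. No member passed the test: 0 of 55 were called, where 1.22% of all probe sets were, and the smallest adjusted p was 0.0643 (limma).

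Without adjustment 21 of the 55 had a p under 0.05 and were lower, 38.2%, where 9.66% of all probe sets were, and 0 were higher, where 15% of all probe sets were. They included 7 of 12 fast sarcomere genes, 5 of 12 shared sarcomere genes, 4 of 15 calcium genes and 3 of 4 energy genes. The others were 1 of 2 slow genes and 1 of 7 smooth or non-muscle genes. The members with the smallest p, all uncalled, were mylpfa, -1.21 (SE 0.32), pvalb8, -1.02 (SE 0.28), and smyhc1, -1.64 (SE 0.46), with adjusted p of 0.0643, 0.0725 and 0.0742 in limma. For ckmt2a the difference was -2.34 (SE 0.84), or -2.21 with intensities under 16 set to 16. In the other direction the largest kept difference was 0.43 (SE 0.29) for myl9b, a smooth muscle and non-muscle light chain. Every array of the knockdowns lay below every uninjected array for 0 of 55 members, where 2.09% of all probe sets did so, and above every uninjected array for 0, where 3.79% did.

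Single preparations decided how many members passed a threshold. The members' median stayed negative whichever array was left out, from -0.781 without uninjected 2 to -0.323 without uninjected 1. Without uninjected 1, 4 members were lower at an unadjusted p under 0.05, where 6.91% of all probe sets were, and without uninjected 3 it was 6 members, where 5.74% were. In both cases 0 of all probe sets were called. Without atg7 2, the array with the high 3' to 5' ratio, 14 members were lower at that level, where 9.41% of all probe sets were, and the part of RNA quality was not tested. Without the arrays numbered 1 it was 9 members, where 8.8% were. Without the uninjected array with low muscle levels, uninjected 2, 4 members were called, where 1.79% of all probe sets were. They were myhz1.3, smyhc1, mylpfa and myh9a, the last of the smooth or non-muscle role. Without becn1 3, 7 were called, namely pvalb8, actc1b, tpma, mylpfa, tnnt3b, tnnc2.2 and mylz3, and 8.52% of all probe sets were. Among the knockdown arrays becn1 3 had the highest median deviation of fast sarcomere genes, 0.83. Over all 66 members atg5 1 stood higher, at 0.22 against 0.16 on becn1 3. On the deposited scale, with no normalization of these values, 3 were called, ckmt2a, smyhc1 and myhz1.3, where 0.815% of all probe sets were.

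**Figure D3:**
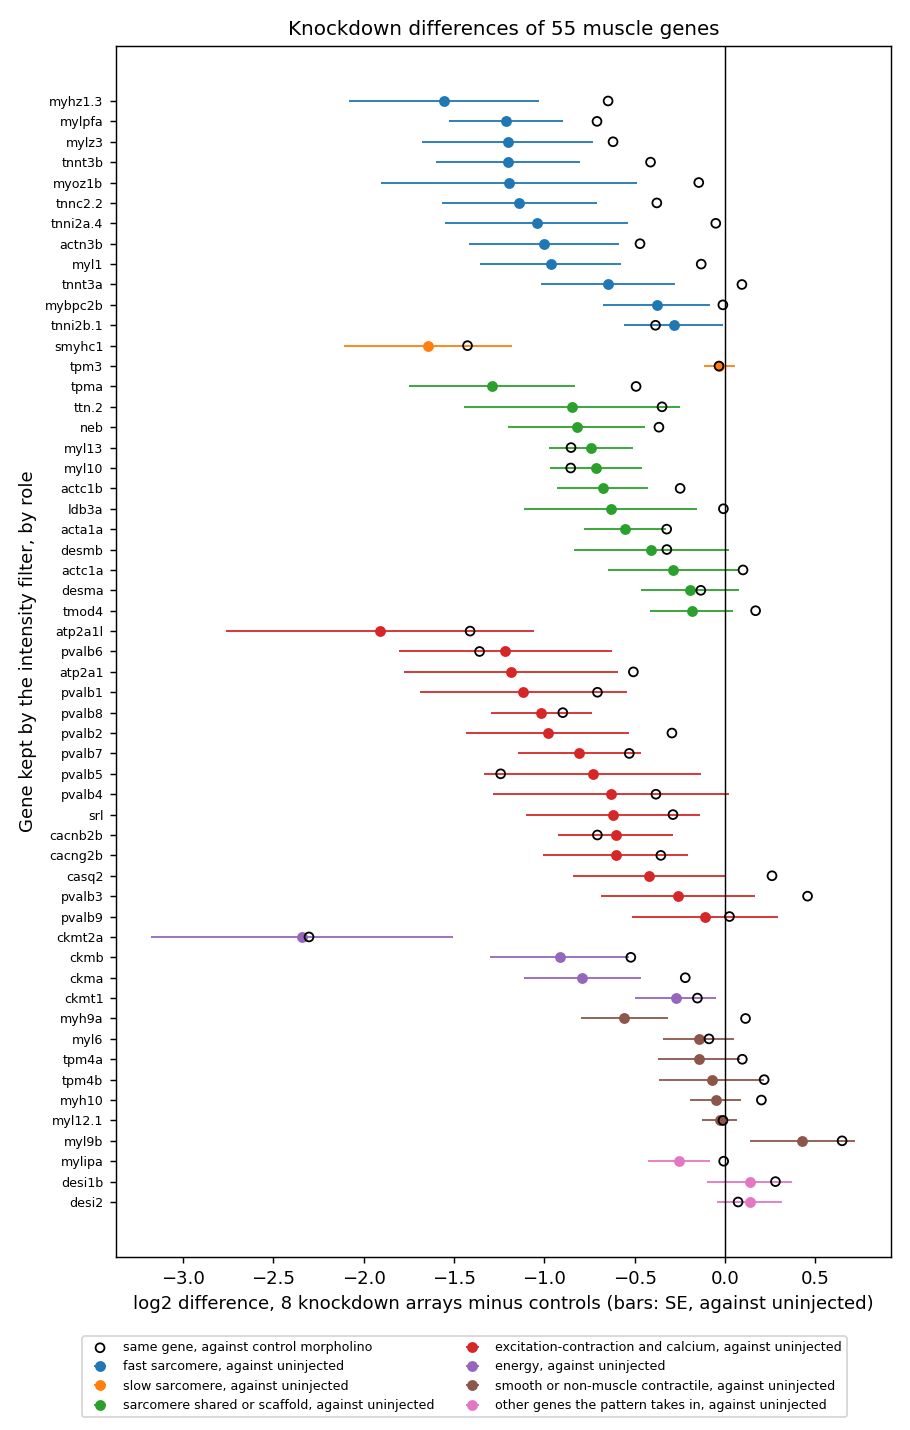
Difference in log2 intensity (horizontal axis) of the 55 kept muscle genes between the 8 knockdown arrays and the uninjected arrays, with SE bars and colours by role, and between the knockdown and the control morpholino arrays (open circles). Most fast, calcium and energy genes lie left of 0 against uninjected and closer to 0 against control morpholino. Most smooth or non-muscle genes lie near 0 in both. Exceptions are myl9b, at 0.43 against uninjected and 0.65 against control morpholino, and myh9a, at -0.56 against uninjected.

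Against the control morpholino, which shares the injection, the members' median was nearer to 0, a contrast between comparisons that was not tested. For the 3 knockdowns together 46 of 66 members were lower, where 46.2% of all probe sets kept were. The median was -0.19 against 0.02 over all probe sets kept. None was called, 0 of 55 against 0% of all probe sets, the smallest adjusted p being 0.872 (limma), and 5 were lower at an unadjusted p under 0.05 where 2.44% of all probe sets were, and 0 were higher, where 2.99% were. These 5 were myl13, -0.85 (SE 0.27), myl10, -0.85 (SE 0.29), pvalb8, -0.90 (SE 0.33), smyhc1, -1.43 (SE 0.54), and ckmt2a, -2.30 (SE 0.98), or -2.18 with intensities under 16 set to 16. Every knockdown array lay below both control arrays for 4 of 55 members, cacnb2b, ckmt2a, myl13 and smyhc1, where 1.95% of all probe sets did so, and above both for 0, where 2.3% did. The control group was split between a high and a low array, and without control morpholino 2 the members' median was 0.10, against -0.51 without control morpholino 3.

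Each knockdown was also set against the control morpholino on its own. Of all probe sets kept, 47.8% were lower in atg5, 46.6% in becn1 and 48.0% in atg7 hearts. For atg5, 45 of 66 members were lower with a median of -0.20 and 0 of 55 were called, where 0% of all probe sets were (smallest adjusted p 1, limma). For becn1, 41 were lower with a median of -0.15 and 0 were called, where 0% of all probe sets were (smallest adjusted p 0.909, limma). For atg7, 45 were lower with a median of -0.28 and 0 were called, where 0.0582% of all probe sets were (smallest adjusted p 0.409, limma, for myl13 at -1.11, SE 0.34). At an unadjusted p under 0.05, 3, 3 and 5 members were lower, where 0.931%, 2.49% and 4.18% of all probe sets were, and 0 members were higher in each, where 1.47%, 2.78% and 5.86% were. All arrays of the knockdown lay below both control arrays for 9 members in atg5, 8 in becn1 and 10 in atg7 hearts, where 7.64%, 8.2% and 18.8% of all probe sets did, and above both for 1, 1 and 2, where 11.2%, 10.5% and 23.8% did. These comparisons share the 2 control arrays, and their medians without control morpholino 2 were 0.14, 0.25 and 0.03.

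The named members with the smallest p in each were as follows. In atg5 hearts myl10 differed by -0.87 (SE 0.34), smyhc1 by -1.56 (SE 0.62) and myl13 by -0.76 (SE 0.31). In becn1 hearts ckmt2a, with 1 array under 16, differed by -2.65 (SE 1.12), or -2.27 with that array set to 16, pvalb8 by -0.85 (SE 0.37) and myl13 by -0.68 (SE 0.31). In atg7 hearts, after myl13, myl10 differed by -1.06 (SE 0.37) and pvalb6 by -2.42 (SE 0.87). The light chain myl9b was the highest-ranked member in the upward direction in atg5 and atg7 hearts, at 0.71 (SE 0.39) and 0.76 (SE 0.43). In becn1 hearts it was the parvalbumin pvalb3, at 0.97 (SE 0.57), or 0.59 with intensities under 16 set to 16. Next upward were mylipa, 0.26 (SE 0.23), and desi2, 0.23 (SE 0.24), in atg5 hearts. In becn1 hearts they were myl9b, 0.48 (SE 0.39), and myh10, 0.23 (SE 0.19), and in atg7 hearts myh10, 0.24 (SE 0.21), and tmod4, 0.31 (SE 0.34). Between knockdowns 0 of 55 members were called in any pair, where 0%, 0.0194% and 0.0194% of all probe sets were for atg5 minus becn1, atg5 minus atg7 and becn1 minus atg7, and the smallest adjusted p values were 0.812, 0.349 and 0.963 (limma).

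Hearts given the control morpholino also had lower values than uninjected hearts for most muscle genes. Of the 66 members 52 were lower, where 49.2% of all probe sets kept were. The median was -0.31 against 0.00 over all probe sets kept, and -0.66 for fast sarcomere genes. None of 55 was called, where 0% of all probe sets were, the smallest adjusted p being 1 (limma), and 0 had an unadjusted p under 0.05 in either direction, where 1.01% of all probe sets were lower and 1.57% higher. Both control morpholino arrays lay below all uninjected arrays for 3 of 55 members, actc1a, myl1 and myl9b, where 7.28% of all probe sets did, and above them for 0, where 10.9% did. Without control morpholino 3 the median was 0.10. The fast essential light chain myl1 differed by -0.83 (SE 0.53), tnnt3a by -0.74 (SE 0.50) and myh9a by -0.67 (SE 0.33). Upward, the smallest p belonged to pvalb5, myl10 and myl13. Their means were 9.25, 8.57 and 7.82 on control morpholino against 8.74, 8.43 and 7.71 on uninjected. Over all 5 groups at once 0 members were called by limma's F test, where 0.0776% of all probe sets were, and 6 of 55 had an unadjusted p under 0.05, where 13.2% of all probe sets did.

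Within the knockdowns the arrays numbered 1, which carried more heart sarcomere RNA, stood apart for few members, at shares near those of all probe sets. On these 3 arrays 6 of 55 kept members, 10.9%, lay above all 5 other knockdown arrays, where 7.89% of all probe sets did. Another 5 members, 9.09%, lay below, where 7.77% did. The 6 were actc1a, 1.17 higher in the mean, pvalb9, 1.14, ttn.2, 1.12, casq2, 0.97, tpm4a, 0.62, and myh10, 0.13. Those named among the 5 lower ones were pvalb1, at -1.80, and pvalb2, at -1.06. The labels say nothing of what the number stands for, and whether the heart genes' level has a part in these differences was not tested.

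Transcripts of other tissues moved with the muscle genes on some arrays. For 13 of 14 listed retina and lens genes on the array, the mean level ran from 7.24 to 7.61 on the atg5 arrays, 4.22 to 7.39 on becn1, 4.56 to 6.13 on atg7, 8.20 to 9.04 on control morpholino and 7.94 to 8.97 on uninjected. For 11 of 15 listed liver and yolk genes it ran from 7.77 to 9.47 on atg5, 7.49 to 9.05 on becn1, 7.67 to 9.41 on atg7, 8.62 to 9.89 on control morpholino and 8.59 to 10.07 on uninjected. By median deviation both lists were highest on uninjected 1 and control morpholino 2, as the 66 members were (0.89 and 0.46). For fast sarcomere genes, however, uninjected 3 (0.93) and becn1 3 stood above control morpholino 2 (0.57). On becn1 3 the median deviation was 0.83 for fast sarcomere genes, 0.38 for cartilage, 0.23 for neurons and glia, 0.21 for retina and lens, -0.07 for epidermis and -1.05 for liver and yolk. Cartilage genes were high on 3 of the arrays on which fast sarcomere genes were high, becn1 3, uninjected 1 (0.79) and uninjected 3 (1.1), but also on control morpholino 3 (0.41), where fast sarcomere genes were at -0.46.

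The other lists gave these values. For 6 of 9 listed cartilage genes the mean level ran from 5.76 to 6.49 on atg5, 4.96 to 6.64 on becn1, 5.08 to 5.95 on atg7, 6.52 to 6.89 on control morpholino and 6.59 to 7.35 on uninjected. For 10 of 13 epidermis genes it ran from 9.05 to 9.75 on the knockdown arrays, 9.56 to 9.72 on control morpholino and 9.69 to 9.98 on uninjected, and for 12 of 14 neuron and glia genes from 7.46 to 8.77, 8.66 to 8.82 and 8.32 to 9.12 in the same groups. In the knockdowns against uninjected hearts the median difference was -2.70 for retina and lens, -0.91 for cartilage, -0.84 for liver and yolk, -0.49 for epidermis and -0.43 for neurons and glia. It was 0.39 for leukocytes and 0.02 for both erythroid cells and endothelium. At an unadjusted p under 0.05, 10 of 13 kept retina and lens genes, 5 of 5 cartilage, 5 of 10 epidermis, 2 of 12 neuron and glia and 1 of 11 liver and yolk genes were lower, where 9.66% of all probe sets were, and 5 of 8 leukocyte genes were higher, where 15% were. Of all these genes 5 of retina and lens and 1 of neurons and glia were called, where 1.22% of all probe sets were, and 0 were called without uninjected 1 or without uninjected 3. No intensity was 0 in any of these genes, and the part of other tissues in the muscle differences was not tested.

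**Figure D4:**
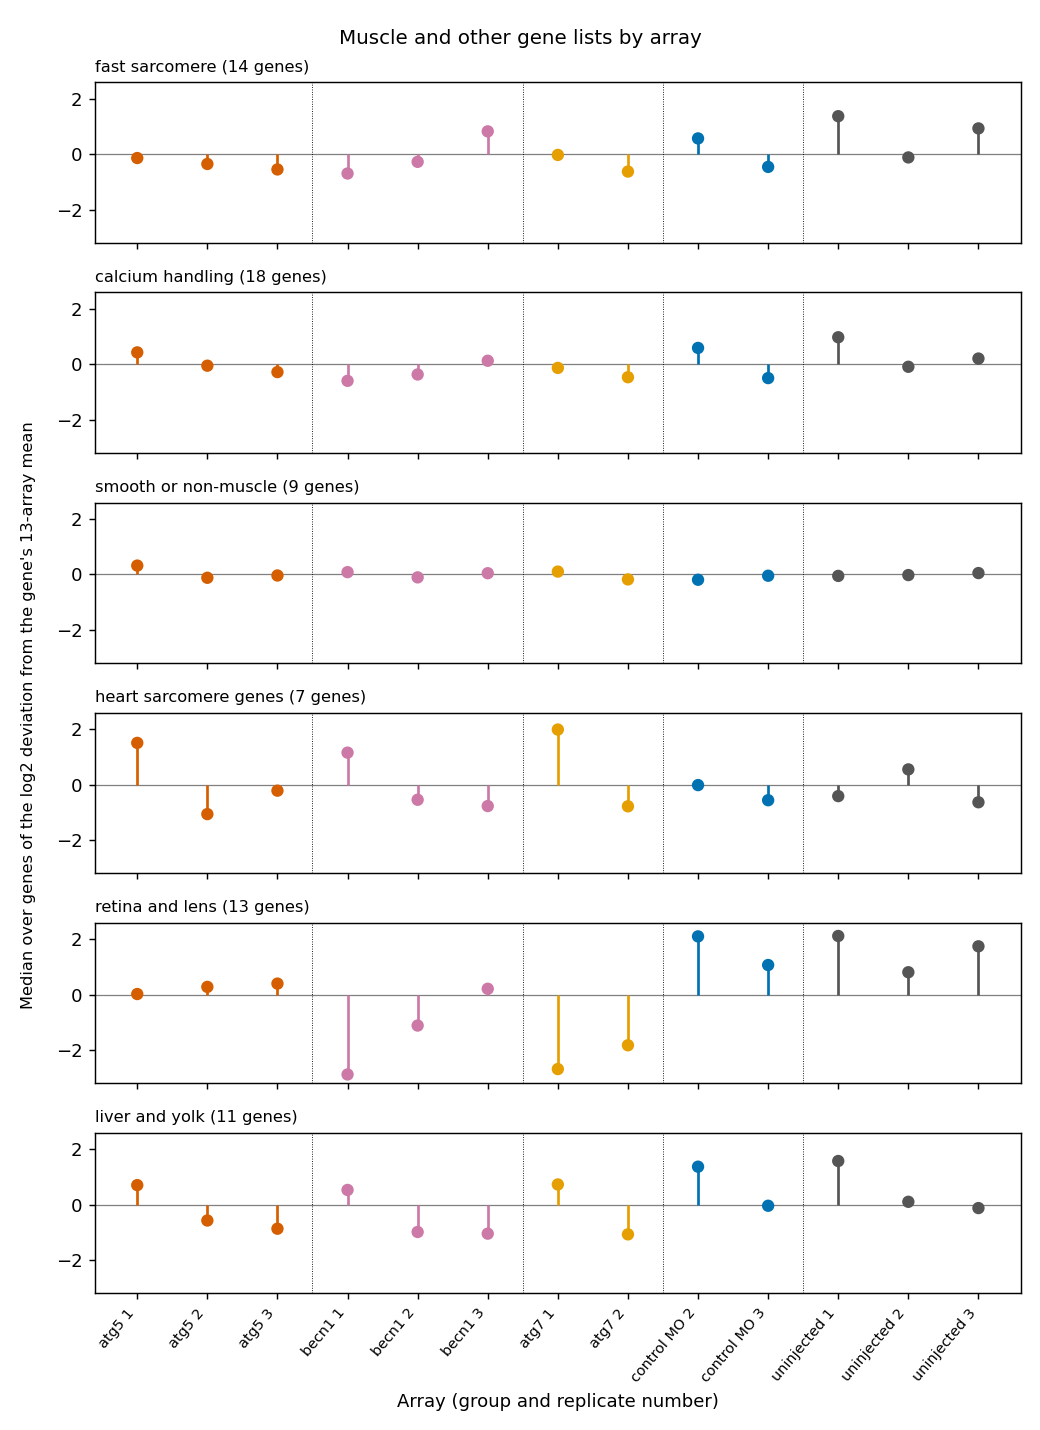
Median over the genes of a list of the log2 deviation from each gene's own 13-array mean (vertical axes), for 3 role groups of muscle genes and for heart sarcomere, retina and lens, and liver and yolk genes, on each array. Fast sarcomere genes peak at 1.38 on uninjected 1, heart sarcomere genes at 1.99 on atg7 1, and smooth or non-muscle genes stay within -0.19 and 0.32.

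Other skeletal muscle genes outside the pattern were listed as well, among them glycolytic enzymes, membrane proteins and myogenic regulators, some of which many tissues express. Of 78 listed, 38 were on the array and 24 were kept. In the knockdowns against uninjected hearts 24 of the 38 were lower and 14 higher, where 47.6% of all probe sets kept were lower. The median was -0.20, and 2 fell with an adjusted p under 0.05 (limma), where 1.22% of all probe sets were called. They were the myocyte enhancer factors mef2d, -1.12 (SE 0.23, adjusted p 0.0488, limma), and mef2aa, -1.01 (SE 0.22, adjusted p 0.0489, limma), which neurons and heart also express. Neither call held without uninjected 1 or without uninjected 3, where 0 of all probe sets were called. Among the brightest of the list, the adenylate kinase ak1 differed by -0.80 (SE 0.25) and the filamin flncb by -0.44 (SE 0.16), against -0.19 (SE 0.11) for gapdhs, 0.08 (SE 0.12) for aldoaa, -0.42 (SE 0.31) for eno3 and 0.44 (SE 0.22) for ldha. The myogenic factors myod1 and myog differed by 0.28 (SE 0.21) and 0.13 (SE 0.22).

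Where a gene had several kept probe sets they mostly gave like differences between knockdown and uninjected hearts. The 2 sets of mylpfa gave -1.21 and -1.06, those of actc1b -0.68 and -0.74, those of tnni2a.4 -1.04 and -0.77 and those of ttn.2 -0.85 and -1.01. For myl12.1 the brightest set gave -0.03, and the 2 dimmer sets gave -0.35 and -0.36. Paralogues such as the fast heavy chains, the troponin I copies and the muscle actins are alike enough in sequence that a probe set named for 1 of them may also read another, so that their values are not fully separate.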

How the data were processed

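RNA of 13 heart preparations was measured on 1-colour Affymetrix arrays. The values the authors deposited are linear intensities per probe set, made with MAS5 at an unstated scaling target, per the submitters' processing notes. The trimmed mean intensity ran from 92.6 to 197, so the arrays were not on 1 scale. The 15502 probe sets left after removing 115 controls were log2 transformed and quantile normalized with no pseudocount. Symbols came from the platform annotation, and all 66 members' symbols were unchanged in the current gene table. One limma fit (3.58.1, R 4.3.3) over the 13 arrays gave the group means, with a prior variance that follows the mean, 8 residual and 4.61 prior degrees of freedom, and two-sided tests. The fit was also run on simulated data with independent noise in each probe set. Those data held no shifts shared by many genes on 1 array, so the run does not bear on such shifts. The number of arrays limits the precision.

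The members, their roles and the other lists were chosen with earlier results of these data known. Named were up to 6 members per role with the highest mean and, in each comparison, the 3 lowest p-values per direction. The 5 widest and 5 narrowest ranges and the 6 brightest other muscle genes were named too. Not all values of these members are given, and acta1a, myl6 and desi1b, also taken by this rule, are named here alone. Other members named, among them myhz1.3, tnnt3a, atp2a1l, casq2, pvalb9 and those called under an alternative, were chosen after their values were seen. Alternatives changed the filter, scaling, pseudocount, prior, probe set choice, control group and arrays included. No sequences were printed.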

Additional observations from a re-analysis of the deposited data

How the results depend on the processing

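With 2 or 3 arrays per group and muscle levels that differ between preparations of 1 group, single arrays move these results. The counts of members called in the knockdowns together against uninjected were 3 on the deposited scale and 0 to 7 when 1 array was left out, 7 without becn1 3 and 4 without uninjected 2, where 0.815%, 8.52% and 1.79% of all probe sets were called. The F test over the 5 groups called 1 member on the deposited scale, ckmt2a, with an adjusted p of 0.0177 (limma), where it called 0.534% of all probe sets. The medians ran from -0.508 to 0.247 for becn1 against control morpholino, the last without control morpholino 2, and from -0.638 to 0.095 for control morpholino against uninjected, the last without control morpholino 3, when 1 array was left out. For the knockdowns together against uninjected the median ran from -0.781 to -0.323 when 1 array was left out. The causes were not tested. Against the control morpholino the deposited scale moved the median of all probe sets to 0.30 and left 30 of 66 members lower in the knockdowns together, 45.5% against 69.7%; relative to all probe sets the members' median was -0.22 on that scale and -0.21 after quantile normalization. For atg5, becn1 and atg7 alone 45.5%, 34.8% and 50% were lower on that scale, and for control morpholino against uninjected 97%. The count of all probe sets called in the knockdowns against uninjected was 126, with 24 without the intensity filter, 84 on the deposited scale, 488 with median scaling, 14 with the compared groups alone, 29 with a constant prior variance and 46 without the arrays numbered 1. Of 880 alternative values for 36 results on named genes, 875 stayed on the same side of the threshold, 5 moved past it and 11 turned sign, all 11 in differences that were not called. A fit with the replicate number as a block called 0 members in every comparison, with a smallest adjusted p of 0.0521 (limma) and a median of -0.574 in the knockdowns against uninjected, where it called 327 of all probe sets. The numbers share no stated source. Among same-numbered pairs of arrays, 12 of 22 had deviations that correlated above 0.1, from -0.407 to 0.62 with a median of 0.13. Among differently numbered pairs 14 of 45 did, from -0.62 to 0.504 with a median of -0.066. In groups of 2 arrays the deviations mirror each other, so the pairs are not separate evidence. Of 13 arrays, 7 correlated best with their own number. The alternatives with intensities under 16 set to 16, and with the sarcomere, calcium and energy genes alone, were chosen after seeing the data, and gave medians of -0.504 and -0.713 in the knockdowns against uninjected.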
